A study of Sus scrofa with 11 samples.

Results

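The genes described here are 36 antioxidant, thioredoxin and iron-storage genes of the pig, read in full-thickness skin wounds of a diabetic and a non-diabetic Yucatan minipig. They were chosen by name for their known parts in hydrogen peroxide, superoxide, thiol and iron handling, with earlier results of these data known. The study of these wounds had already named GPX1 and MSRB2 among its most changed genes. All 36 were found among the 30376 genes of the deposited expression values. The diabetic group holds 7 wounds of a single female minipig made diabetic by an intravenous infusion of streptozotocin, a toxin of the pancreatic beta cells, kept on insulin during a maturation period and taken off insulin before wounding. The non-diabetic group holds 4 wounds of another female minipig that underwent the same wounding and received no streptozotocin. Every wound was made with a biopsy punch on the back and sampled on day 10, and each gave 1 poly-A RNA library. Since each group is 1 animal, the error behind each p-value is that among wounds on 1 back, and diabetes cannot be told apart from any other difference between the 2 minipigs.

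Cells dispose of reactive oxygen in steps. Superoxide dismutases turn superoxide into hydrogen peroxide, which catalase, glutathione peroxidases and peroxiredoxins then reduce to water. Glutathione peroxidases draw their electrons from glutathione, most peroxiredoxins draw them from thioredoxin, and both pools are recharged with NADPH by glutathione reductase and thioredoxin reductase. Methionine sulfoxide reductases repair oxidised methionine in proteins. Ferritin locks iron away in a form that cannot feed the Fenton reaction, and the transcription factor NRF2, held back by KEAP1, is known for raising many of these genes under oxidative or electrophilic stress. In skin wounds the oxidants come largely from the oxidative burst of neutrophils and macrophages.

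Expression was given as FPKM, reads scaled by gene length and by a factor for each library. Between 28314785 and 40168372 reads per wound fell on genes. For a gene 2 kb long, 1 read was worth 0.0112 to 0.0194 FPKM. This worth did not follow the reads on genes alone. It was 0.0112 FPKM in diabetic replicate 2 (37922563 reads) and 0.0153 FPKM in diabetic replicate 5 (37723496 reads). Markers of keratinocytes and fibroblasts were present in the tissue as labelled. The wounds of diabetic replicate 4 and non-diabetic replicate 1 stood apart from the other 9 on the first principal component (44.5% of the variance). Their 12 keratinocyte markers summed to 45.3 and 297.9 FPKM, against 1624 to 6801 FPKM in the other 9 wounds. Their 8 neutrophil markers summed to 46.2 and 301.4 FPKM, against 3808 to 12591 FPKM, a sum carried by S100A8, S100A9 and S100A12, which keratinocytes also express. Without these 3 genes the sums were 8.74 and 4.29 FPKM, against 6.67 to 19.7 FPKM. Because 1 such wound lies in each group, the calls and the log2 fold changes of the genes lowest or highest in this pair are also given without it. In bulk tissue, fewer cells of a type and less RNA per cell cannot be told apart.

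Of the 36 genes, 2 were called higher in diabetic wounds, GPX1 and MSRB2, and none lower (limma on log2(FPKM + 0.5), adjusted p under 0.05 among 13956 genes and an absolute log2 fold change over 0.5). That is 5.56% of the genes, and 3.00% of all genes tested were called, 1.35% higher and 1.66% lower. Since the list was not drawn blind to these data, the shares describe it and do not test it. At an unadjusted p under 0.05, 7 were higher (GPX1, MSRB2, PRDX5, SRXN1, TXNRD1, NQO1 and CAT) and 2 lower (GPX4 and MSRB3), which is 25% of the 36 against 18.4% of all genes tested. On reads recovered from the values, limma's voom also called 2 higher and 0 lower. The groups did not overlap for 3 of the genes (8.33%, against 5.65% of all genes tested), GPX1 and MSRB2 being higher and GPX4 lower in every diabetic wound, with 2.69% of all genes tested wholly higher and 2.96% wholly lower. Of the 36 log2 fold changes, 26 lay above 0 (72.2%, against 52.3% of all genes), with a median of 0.13 against 0.01 over all genes, and 31 lay within 0.5 of 0, as did 89.4% of all genes. Without diabetic replicate 4 and non-diabetic replicate 1, the count of genes called was still 2, both higher, and 1.52% of all genes were called, 0.803% higher and 0.717% lower.

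**Figure D1:**
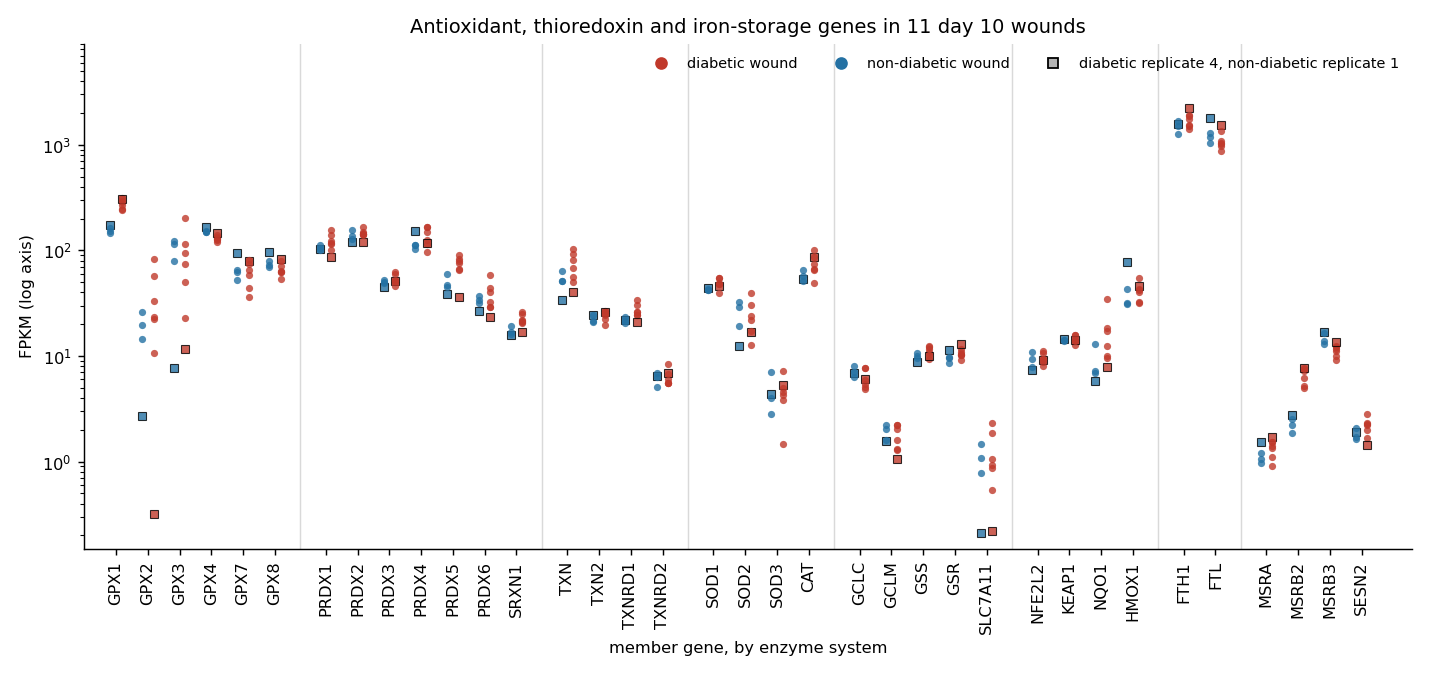
FPKM (log axis) of the 36 genes in each wound, grouped by enzyme system in the order of the text, with diabetic wounds in red, non-diabetic wounds in blue and the 2 wounds low in keratinocyte markers as squares. FTH1 and FTL lie near or above 1000 FPKM in every wound, SLC7A11, MSRA and GCLM lie near 1, and GPX1 and MSRB2 are the genes whose red points all lie above the blue ones.

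The bases next to the start of a gene bear on whether the NRF2-type motif was common to the genes that differed. The core of the antioxidant response element, TGACNNNGC, was searched on both strands of the 250 bases before each annotated start in Sscrofa11.1, the genome of a Duroc pig and not of a Yucatan minipig. It was found in 4 of the 36 genes (11.11%), and in 9.84% of 20664 protein-coding genes. The AP-1 site TGANTCA, which can overlap the former, was found in 2 of the 36 (5.56%, against 5.48%). The matches are shown with 10 bases on either side and the motif in capitals, read on the strand of the gene, since they are the only ones among the 36. In GPX4 and TXN the motif lies on the opposite strand, so its reverse complement is printed. The NQO1 match holds both motifs. They lie at chr2:77324103-77324131 (minus strand), chr1:251278004-251278032 (minus), chr7:27209373-27209401 (plus), chr6:17292742-17292770 (plus) and chr17:34582136-34582162 (plus), in that order.
GPX4: ctgagagcatGCGCAGTCAcctacagcaa
TXN: gcactaaactGCTGTGTCAcgccgaagca
GCLC: aaaacgaggcTGACCCGGCtcctcgccgc
NQO1: ctagtcacagTGACTCAGCgagattctga
SRXN1: agactcacccTGAGTCAgcctgcccgg

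Neither motif was found before GPX1 or MSRB2, the genes called, which says only that these letters are not in these windows. Their 250 bases are printed because the data single these genes out. They lie at chr13:31917338-31917587 and chr10:51910726-51910975, both on the minus strand, printed 5′ to 3′ toward the gene. The GPX1 window is 69.6% G and C with 23 CpG pairs, and the MSRB2 window is 34.8% G and C with 3 CpG pairs, before a start that the annotation predicts from aligned evidence.
GPX1: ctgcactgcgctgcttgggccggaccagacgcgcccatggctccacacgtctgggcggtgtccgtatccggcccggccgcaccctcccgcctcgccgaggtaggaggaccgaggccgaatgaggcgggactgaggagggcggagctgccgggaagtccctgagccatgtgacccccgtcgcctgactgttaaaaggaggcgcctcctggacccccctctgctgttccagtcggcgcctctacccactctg
MSRB2: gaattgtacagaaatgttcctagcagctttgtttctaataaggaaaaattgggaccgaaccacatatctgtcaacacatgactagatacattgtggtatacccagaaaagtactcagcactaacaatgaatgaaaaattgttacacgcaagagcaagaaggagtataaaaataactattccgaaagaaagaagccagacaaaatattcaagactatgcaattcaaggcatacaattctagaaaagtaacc

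The levels spanned more than 3 orders of magnitude. On the FPKM scale, averaged over the 11 wounds, the heavy and light ferritin chains led (FTH1 1660 and FTL 1199 FPKM), followed by GPX1 (235.7), PRDX2 (140.5), GPX4 (140.5), PRDX4 (128.4) and PRDX1 (114.3). At the other end stood SESN2 (2.00), GCLM (1.74), MSRA (1.30) and SLC7A11 (1.03). The steadiest gene was KEAP1, whose highest wound was 1.23 times its lowest, and TXN2, PRDX2, PRDX3, SOD1 and GPX4 stayed within 1.36 to 1.39 times. The least steady were GPX2 (262 times between the lowest and the highest wound), GPX3 (26.7 times) and SLC7A11 (11.03 times), and all 3 had their lowest values in the pair of wounds low in keratinocyte markers.

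Among the 6 glutathione peroxidases, GPX1 was called higher and the other 5 were not called. GPX1 encodes the selenoenzyme of the cytosol and mitochondria that reduces hydrogen peroxide with glutathione, and its gene (NCBI 397403) lies at chr13:31916269-31917337 of Sscrofa11.1, minus strand. In the 4 non-diabetic wounds it stood at 175.2, 145.6, 153.4 and 161.6 FPKM, and in the diabetic wounds at 270.8, 310.7, 284.5, 304.0, 248.3, 242.9 and 295.9 FPKM. Every diabetic wound lay above every non-diabetic wound, and the gap between the groups was wider than the range of the non-diabetic group. The means were 279.6 ± 26.6 FPKM (SD, n = 7) and 158.9 ± 12.7 FPKM (SD, n = 4), a log2 fold change of 0.81 with a standard error of 0.09 and a 95% interval of 0.61 to 1.02, or 1.75-fold (limma, adjusted p = 0.000936). Without diabetic replicate 4 and non-diabetic replicate 1 the log2 fold change was 0.84 (limma, adjusted p = 0.006581). No annotated gene overlaps GPX1.

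GPX4, the selenoenzyme that reduces lipid hydroperoxides in membranes and is known as the brake on ferroptosis, lay on the other side. Its gene (NCBI 399537) is at chr2:77321568-77323931, minus strand. It read 167.7, 153.1, 150.0 and 148.8 FPKM in the non-diabetic wounds and 120.95 to 144.8 FPKM, with a median of 132.0, in the diabetic wounds. The groups did not overlap, but the highest diabetic wound and the lowest non-diabetic wound were close. The log2 fold change was -0.23 (standard error 0.08, 95% interval -0.39 to -0.06) and did not pass the test (limma, adjusted p = 0.1292). Because GPX1 was higher and GPX4 lower in every diabetic wound, their ratio could not overlap between the groups. As a description only, it was 1.92 to 2.30 in the diabetic wounds and 0.951 to 1.09 in the non-diabetic ones. GPX1 and GPX4 were about level in the non-diabetic animal, and GPX1 led in the diabetic animal.

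**Figure D2:**
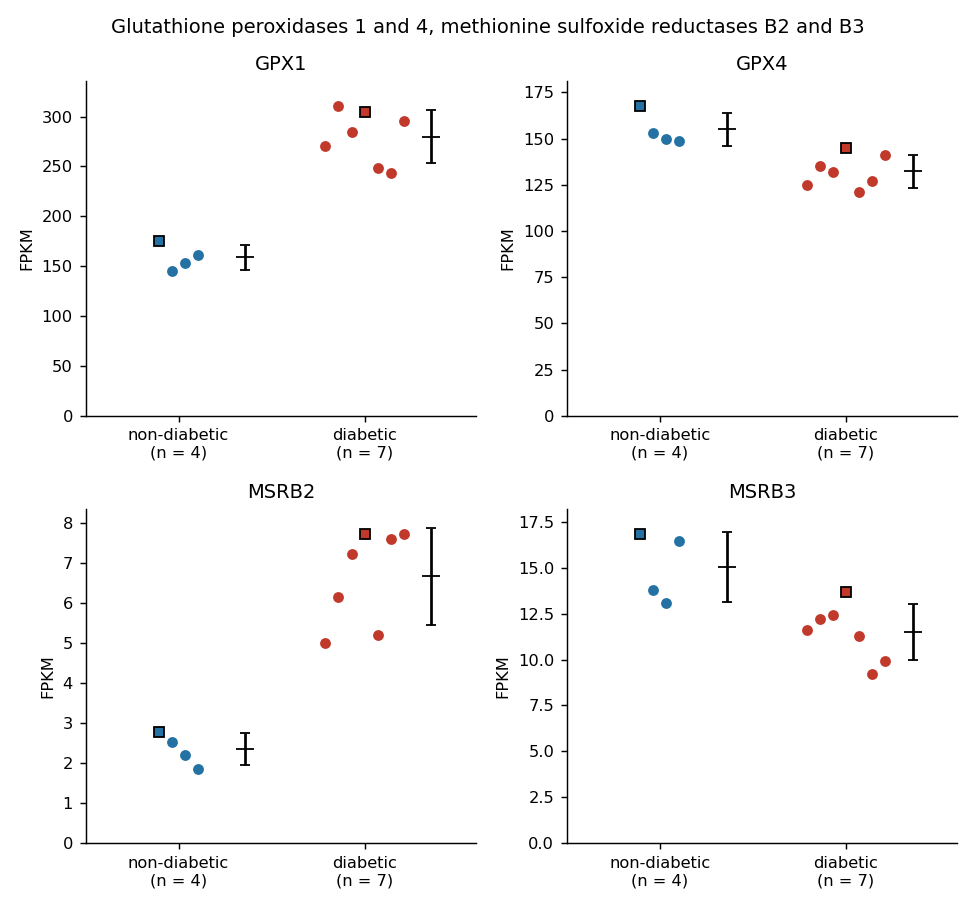
FPKM of GPX1, GPX4, MSRB2 and MSRB3 in each wound of the non-diabetic (blue, n = 4) and diabetic (red, n = 7) minipig, with the mean and SD as a bar beside the points and the 2 wounds low in keratinocyte markers as squares. GPX1 and MSRB2 lie higher in all diabetic wounds, GPX4 lies lower in all of them, and MSRB3 overlaps between 13.1 and 13.7 FPKM.

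The other 4 glutathione peroxidases were not called. GPX2, an epithelial and gut enzyme, ranged from 0.316 to 82.5 FPKM in diabetic wounds and from 2.71 to 26.2 FPKM in non-diabetic wounds. Its lowest values were those of diabetic replicate 4 and non-diabetic replicate 1, so its log2 fold change of 0.56 carried a standard error of 1.09, and it was 0.66 without this pair. GPX2 lies inside CHURC1 on the opposite strand (15.4 and 15.1 mean FPKM), and whether the counting used strand is not stated. GPX3, the peroxidase secreted into plasma and extracellular fluid, averaged 81.7 ± 65.5 (SD, n = 7) and 80.8 ± 52.4 FPKM (SD, n = 4), again lowest in the same pair (11.6 and 7.66 FPKM). Its log2 fold change turned from 0.09 to -0.44 without the pair, neither passing the test. Its highest value, 204.6 FPKM, came from diabetic replicate 3, the wound whose 8 matched skeletal muscle markers summed to 1835 FPKM against at most 5.14 elsewhere, and the part of muscle in it was not tested. The endoplasmic reticulum enzymes GPX7 (62.6 ± 17.4 against 69.0 ± 18.1 FPKM) and GPX8 (67.9 ± 10.4 against 78.9 ± 11.96 FPKM) had log2 fold changes of -0.16 and -0.22.

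Peroxiredoxins, the abundant thiol peroxidases, and sulfiredoxin, which repairs them after overoxidation, all had log2 fold changes above 0, and none of the 7 was called. Their range was 0.08 to 0.54 and their median 0.14, and 52.3% of all genes tested lay above 0. The 95% intervals of PRDX1, PRDX2, PRDX3, PRDX4 and PRDX6 held 0. Each of these log2 fold changes turned below 0 under some other setting given below. PRDX5, which works in mitochondria, peroxisomes and the cytosol, came nearest. It read 38.9, 60.2, 44.6 and 47.2 FPKM in the non-diabetic wounds, and 64.5, 90.3, 67.0, 36.1, 75.5, 83.6 and 79.5 FPKM in diabetic replicates 1 to 7. Diabetic replicate 4 was the lowest of all 11 wounds, and the other 6 diabetic wounds lay above every non-diabetic wound. The log2 fold change was 0.54 (standard error 0.22, limma, adjusted p = 0.2238), and with diabetic replicate 4 left out it was 0.69 and was called (limma, adjusted p = 0.0231). With non-diabetic replicate 1 left out as well, it was 0.60 (limma, adjusted p = 0.06894).

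SRXN1, the sulfiredoxin gene and a textbook NRF2 target, showed the same arrangement. It read 15.7, 16.7, 19.3 and 16.0 FPKM in the non-diabetic wounds, 16.9 FPKM in diabetic replicate 4 and 20.3 to 26.1 FPKM in the other diabetic wounds. Its log2 fold change of 0.34 did not pass the test (limma, adjusted p = 0.1357), nor did the 0.37 found without the pair low in keratinocyte markers (limma, adjusted p = 0.1567). The remaining peroxiredoxins differed less. PRDX1, the main cytosolic form, stood at 119.8 ± 22.9 and 104.8 ± 5.68 FPKM, PRDX3 of the mitochondria at 53.3 ± 5.83 and 49.3 ± 3.17 FPKM, PRDX4 of the endoplasmic reticulum at 133.3 ± 27.1 and 119.8 ± 21.5 FPKM, and PRDX6, which uses glutathione, at 36.7 ± 12.02 and 32.4 ± 4.23 FPKM (diabetic and non-diabetic, SD, n = 7 and 4). PRDX2, known for its abundance in red cells, stood at 143.3 ± 13.0 and 135.6 ± 15.5 FPKM. The 6 matched red cell markers summed to 0.474 to 19.8 FPKM in diabetic and 19.2 to 43.3 FPKM in non-diabetic wounds, with SLC4A1 near 0 throughout, and their part in PRDX2 was not tested.

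All 4 genes of the thioredoxin system likewise had log2 fold changes above 0, and none was called. Those of TXN, TXN2 and TXNRD2 turned below 0 under some other setting given below. TXN, cytosolic thioredoxin, read 34.0 to 63.6 FPKM in non-diabetic and 40.5 to 101.9 FPKM in diabetic wounds, with diabetic replicates 1 to 3 at 80.7, 101.9 and 91.7 FPKM. Its log2 fold change was 0.45 with an interval of -0.11 to 1.01 (limma, adjusted p = 0.3883). TXNRD1, the cytosolic selenoenzyme that recharges thioredoxin, read 22.0, 23.3, 21.2 and 20.4 FPKM in the non-diabetic wounds and 20.9 to 34.1 FPKM in the diabetic ones, where only diabetic replicate 4 fell inside the non-diabetic range. Its log2 fold change was 0.28 (limma, adjusted p = 0.2406), and 0.34 without the pair low in keratinocyte markers (limma, adjusted p = 0.2247). The mitochondrial partners were nearly level, TXN2 at 24.4 ± 2.54 and 22.9 ± 1.67 FPKM and TXNRD2 at 6.38 ± 1.04 and 6.195 ± 0.764 FPKM. The ratio of TXN to TXN2 overlapped between the groups, at 1.55 to 4.53 in diabetic and 1.403 to 3.00 in non-diabetic wounds.

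**Figure D3:**
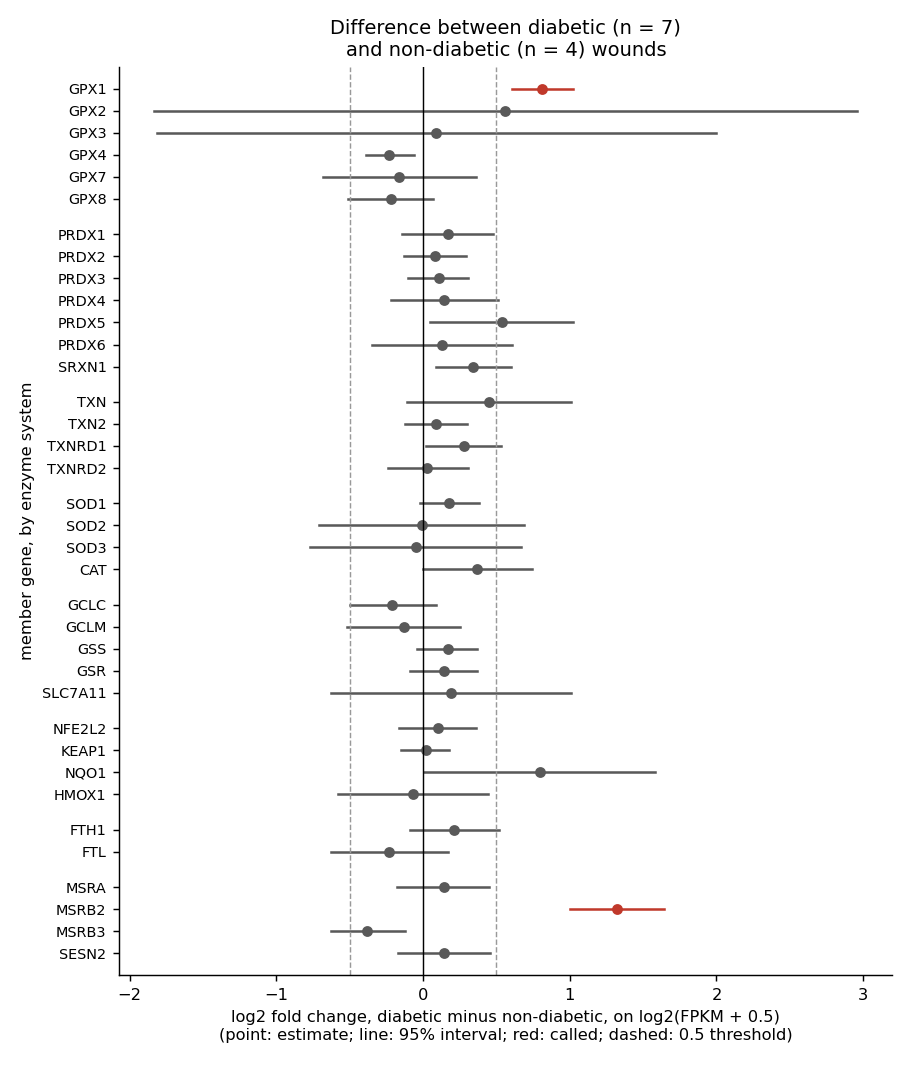
Log2 fold change of each gene (diabetic minus non-diabetic, on log2(FPKM + 0.5)), with its 95% interval as a line, called genes in red and the 0.5 threshold dashed. GPX1 (0.81) and MSRB2 (1.32) have intervals that lie wholly above 0.5, while the peroxiredoxin and thioredoxin genes lie between 0.03 and 0.54 and the intervals of GPX2 and GPX3 are the widest.

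Superoxide dismutases and catalase showed no called difference. SOD1, the copper and zinc enzyme of the cytosol, read 39.9 to 55.1 FPKM in diabetic and 41.9 to 43.9 FPKM in non-diabetic wounds, and its log2 fold change of 0.18 had an interval of -0.02 to 0.38. SOD2, the manganese enzyme of the mitochondria, had the same mean in both groups, 23.3 ± 9.28 and 23.4 ± 9.17 FPKM, but the interval of its log2 fold change, -0.71 to 0.69, leaves room for a difference in either direction. SOD3, the secreted form, averaged 4.52 ± 1.74 and 4.58 ± 1.81 FPKM. CAT, the peroxisomal catalase, read 53.9, 65.0, 57.4 and 51.6 FPKM in the non-diabetic wounds and 49.1 to 100.01 FPKM, with a median of 74.1, in the diabetic wounds. The lowest CAT value of all belonged to diabetic replicate 1, and the log2 fold change of 0.37 did not pass the test (limma, adjusted p = 0.271).

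None of the 5 genes of glutathione supply was called. GCLC and GCLM, the catalytic and modifier subunits of the enzyme that limits glutathione synthesis, had log2 fold changes of -0.21 and -0.13, with 6.12 ± 1.15 against 7.05 ± 0.676 FPKM and 1.68 ± 0.481 against 1.85 ± 0.317 FPKM. GSS, which adds the glycine, and GSR, which recharges glutathione, had log2 fold changes of 0.17 and 0.14. For these 4 genes the 95% intervals reached no further than -0.52 to 0.37. SLC7A11, the cystine carrier that feeds glutathione synthesis, was the least abundant of the 36 genes. It read 0.219 to 2.31 FPKM in diabetic and 0.209 to 1.46 FPKM in non-diabetic wounds, lowest in the pair of wounds low in keratinocyte markers. Its log2 fold change of 0.19 had a wide interval, -0.63 to 1.01, which leaves room for a difference in either direction.

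The NRF2 gene itself (NFE2L2) and its keeper KEAP1 differed little between the groups. NFE2L2 stood at 9.49 ± 1.11 and 8.86 ± 1.55 FPKM, and KEAP1 at 14.4 ± 1.03 and 14.2 ± 0.228 FPKM, with an interval for the log2 fold change of KEAP1 of -0.15 to 0.18. The span of NFE2L2 overlaps HNRNPA3 and AGPS on the opposite strand. The activity of NRF2 is set largely by the stability of its protein, which RNA does not measure. NQO1, a quinone reductase and a classical NRF2 target, whose printed window holds both motifs, read 5.84, 7.25, 12.9 and 6.86 FPKM in the non-diabetic wounds and 12.6, 34.5, 17.3, 7.88, 9.94, 9.59 and 18.3 FPKM in diabetic replicates 1 to 7. Diabetic replicate 2 was far above the rest, and 4 diabetic wounds lay inside the non-diabetic range. The log2 fold change of 0.80 had an interval of 0.01 to 1.58 (limma, adjusted p = 0.2624). HMOX1, haem oxygenase, which frees iron from haem and lies on an unplaced scaffold of the assembly, averaged 41.3 ± 7.88 and 45.8 ± 21.3 FPKM, and its highest value, 76.8 FPKM, was that of non-diabetic replicate 1. Without the pair of wounds low in keratinocyte markers its log2 fold change moved from -0.07 to 0.18.

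Ferritin RNA was by far the most abundant, and neither of its 2 chains was called. FTH1, the heavy chain that oxidises iron, read 1565, 1515, 1264 and 1666 FPKM in the non-diabetic wounds and 1425 to 2251 FPKM, with a median of 1763, in the diabetic wounds. FTL, the light chain that helps the iron core form, read 1805, 1298, 1029 and 1174 FPKM in the non-diabetic wounds and 881.6 to 1524 FPKM, with a median of 1038, in the diabetic wounds. The groups overlapped for both. Their log2 fold changes lay on opposite sides of 0, at 0.21 (interval -0.09 to 0.52) and -0.23 (interval -0.63 to 0.17). As a description, the ratio of FTH1 to FTL within a wound was 1.41 to 1.84 in the diabetic and 0.867, 1.17, 1.23 and 1.42 in the non-diabetic wounds, so that only non-diabetic replicate 4 reached the lowest diabetic wound. Ferritin has many gene copies in mammals. Another 44 entries were ferritin by description, 28 of them at 0 in every wound and none above 0.675 FPKM, and reads that such copies share with FTH1 or FTL could have been lost or split in the counting.

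**Figure D4:**
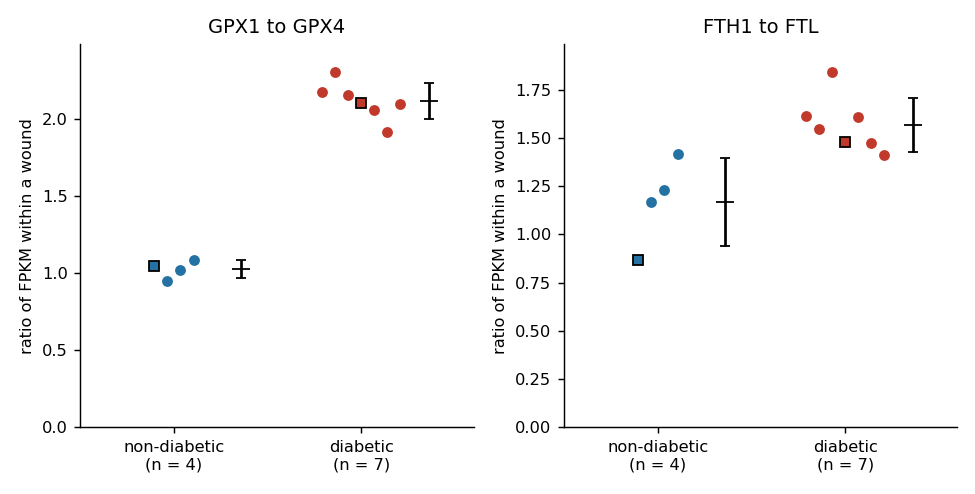
Ratio of FPKM within each wound for GPX1 to GPX4 and for FTH1 to FTL, with the mean and SD as a bar beside the points (non-diabetic n = 4, diabetic n = 7) and the 2 wounds low in keratinocyte markers as squares. The GPX1 to GPX4 ratio is 0.951 to 1.09 in non-diabetic and 1.92 to 2.30 in diabetic wounds, and the FTH1 to FTL ratios meet at 1.41 and 1.42.

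Among the methionine sulfoxide reductases, MSRB2 was called and MSRB3 lay on the other side. MSRB2, the mitochondrial enzyme for the R form of methionine sulfoxide, had the largest log2 fold change of the 36 genes. Its gene (NCBI 100624041) is at chr10:51888828-51910725, minus strand. It read 2.77, 2.54, 2.22 and 1.87 FPKM in the non-diabetic wounds and 4.99, 6.15, 7.21, 7.73, 5.19, 7.60 and 7.72 FPKM in the diabetic wounds. The groups were well apart, with the lowest diabetic wound far above the highest non-diabetic one. The means were 6.66 ± 1.20 FPKM (SD, n = 7) and 2.35 ± 0.394 FPKM (SD, n = 4), a log2 fold change of 1.32 with a standard error of 0.15 and an interval of 1.00 to 1.64, or 2.50-fold on the scale with the pseudocount (limma, adjusted p = 0.0007597). Without the pair of wounds low in keratinocyte markers it was 1.35 (limma, adjusted p = 0.004771). An uncharacterised gene, LOC110255700, overlaps MSRB2 on the opposite strand, with at most 0.165 mean FPKM in a group.

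MSRB3, the form of the endoplasmic reticulum and mitochondria (NCBI 100511693, chr5:29695824-29863601, plus strand), read 16.9, 13.8, 13.1 and 16.4 FPKM in the non-diabetic and 11.6, 12.2, 12.4, 13.7, 11.3, 9.23 and 9.92 FPKM in the diabetic wounds. Only diabetic replicate 4 reached into the non-diabetic range. The log2 fold change was -0.38 (standard error 0.12, limma, adjusted p = 0.1079). The ratio of MSRB2 to MSRB3 within a wound was 0.431 to 0.824 in diabetic and 0.114 to 0.184 in non-diabetic wounds, so MSRB3 was the more abundant in every wound. MSRA, which acts on the S form, stood at 1.36 ± 0.274 and 1.19 ± 0.252 FPKM. SESN2, a stress-induced sestrin that restrains the growth kinase mTORC1, stood at 2.10 ± 0.454 and 1.83 ± 0.196 FPKM, and neither was called.

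Several of the 36 genes were lowest or highest in the wounds low in keratinocyte markers, whichever animal these came from. In 7 of them, GPX2, GPX3, PRDX2, PRDX5, PRDX6, TXN and SLC7A11, both wounds low in keratinocyte markers lay below the other 9 (19.4% of the 36, against 10.8% of all genes tested). In 3, GPX8, FTL and MSRA, both lay above the other 9 (8.33%, against 5.65%). None of these 10 genes was called with or without the pair. Without it the log2 fold changes were 0.07 in PRDX2, 0.60 in PRDX5, 0.14 in PRDX6, 0.40 in TXN, 0.07 in SLC7A11, -0.17 in GPX8, -0.15 in FTL and 0.19 in MSRA. GPX1 and MSRB2 lay neither below nor above the other 9 in both of these wounds. Diabetic replicate 4 had 304.0 FPKM of GPX1 and 7.73 FPKM of MSRB2, near or at the top of its group, and non-diabetic replicate 1, with 175.2 and 2.77 FPKM, had the highest values of its own.

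**Figure D5:**
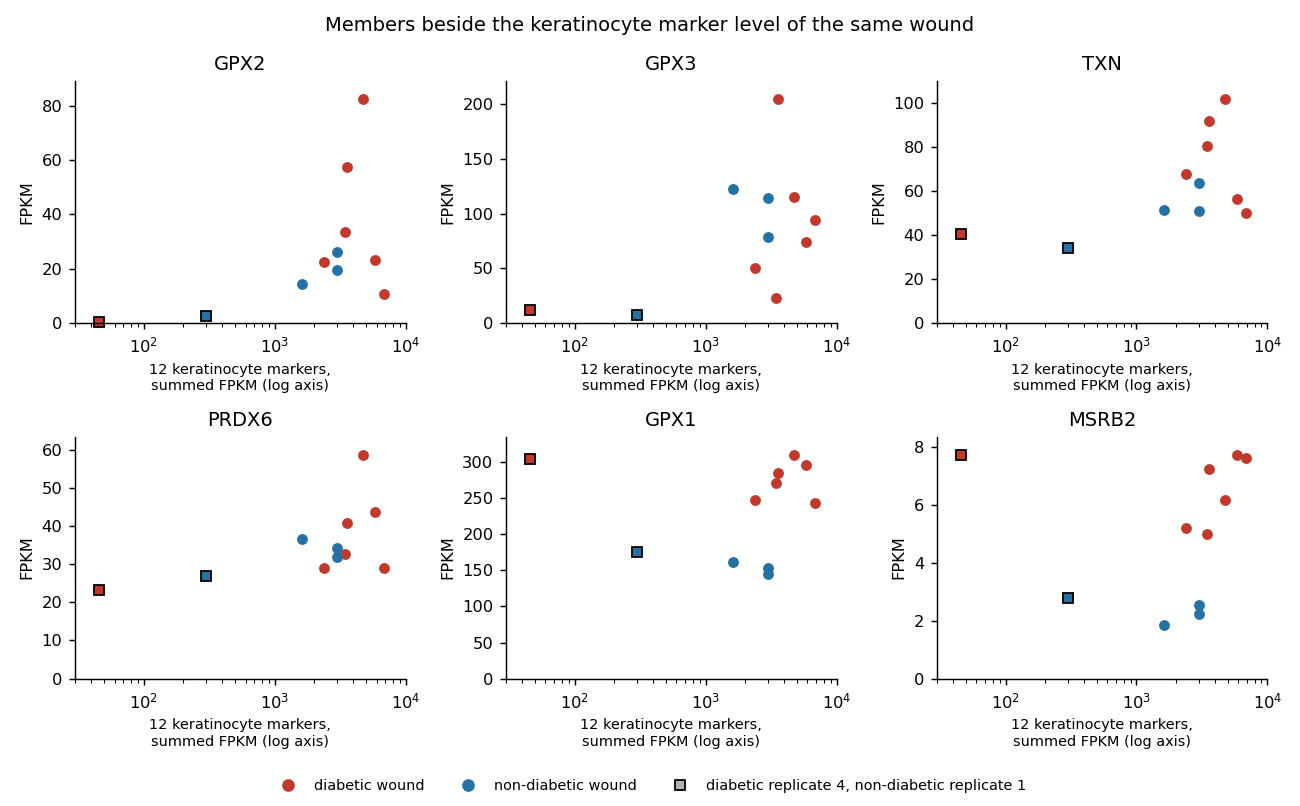
FPKM of 6 genes against the summed FPKM of 12 keratinocyte markers (log axis) in the same wound, diabetic wounds in red and non-diabetic in blue, with the 2 wounds low in keratinocyte markers as squares. GPX2, GPX3, TXN and PRDX6 are lowest in the squares, whereas GPX1 and MSRB2 are split by animal in the squares as in the circles.

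Markers of some other cell types also differed between the groups. All 11 macrophage markers had log2 fold changes above 0, with a median of 0.66, and 3 of them were called higher (CD14, MRC1 and MARCO). Their summed level was 1683 to 3331 FPKM in diabetic and 958.1 to 2179 FPKM in non-diabetic wounds. LYZ carried much of this sum and ran against the other 10, at 38.9 and 57.9 FPKM in diabetic replicate 4 and non-diabetic replicate 1 against at least 714.9 FPKM elsewhere. Without LYZ the sum was 751.8 to 1709 FPKM in diabetic wounds, highest in diabetic replicate 4, and 482.9 to 900.2 FPKM in non-diabetic wounds, highest in non-diabetic replicate 1. Of 4 B and plasma cell markers tested, 3 were called higher (CD79A, CD79B and MZB1), and the list summed to 45.5 to 103.2 against 14.7 to 78.0 FPKM. No marker of fibroblasts, endothelial cells, keratinocytes, neutrophils or T cells was called, and of 5 adipocyte markers 1 was called lower (LEP). The part of macrophages or B cells in the GPX1 and MSRB2 values was not tested.

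The library names open with L or R, a letter that the labels do not explain. Among L-named wounds (diabetic replicates 1 to 3 and non-diabetic replicates 1 and 2) the log2 fold changes of GPX1 and MSRB2 were 0.85 and 1.06, and among R-named wounds 0.78 and 1.56, so both were higher within either letter. They passed the test among R-named wounds (limma, adjusted p = 0.02292 and 0.01527) and not among the L-named ones (limma, adjusted p = 0.1236 for both). For SOD2 the values had opposite signs, 0.92 among L-named and -0.82 among R-named wounds, and for NQO1 they were 1.52 and 0.20. The difference between letters was not tested, and the wounds low in keratinocyte markers fall on opposite sides of it, diabetic replicate 4 being R-named and non-diabetic replicate 1 L-named.

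Around these 36 genes, 84 further genes of the same pathways were listed, of which 79 could be tested. One was called higher, 1 lower and 77 neither, where 3.00% of all genes tested were called. Of the 79, 20 were at an unadjusted p under 0.05, against 2567 of all 13956 genes tested (18.4%). Their median log2 fold change was 0.05, against 0.01 over all genes. The groups did not overlap for 3 of the 79 higher and 2 lower, against 789 of the 13956 in either direction (5.65%). The gene called higher was TXNIP, the thioredoxin-binding protein known to respond to glucose, with 168.5 ± 49.5 FPKM (SD, n = 7) against 88.3 ± 14.9 FPKM (SD, n = 4) and a log2 fold change of 0.90 (limma, adjusted p = 0.0388). Its non-diabetic wounds read 86.0, 103.0, 68.5 and 95.6 FPKM and its diabetic wounds 120.9 to 250.9 FPKM, with no overlap. The call was lost in 16 of 27 alternatives, among them the one without the pair of wounds low in keratinocyte markers (0.82, limma, adjusted p = 0.1235). The gene called lower was SESN3, another sestrin, at 4.06 ± 0.667 against 5.98 ± 0.759 FPKM, with a log2 fold change of -0.51 that only just passed (limma, adjusted p = 0.04981) and was lost in 22 of 27 alternatives.

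By role, the 12 genes of glutathione handling and glutaredoxins had the highest median log2 fold change (0.32), with none called. At an unadjusted p under 0.05, which 18.4% of all genes tested reached, 5 of them lay above 0 and 1 below (GLRX5, log2 fold change -0.23). SLC3A2, the heavy chain that partners SLC7A11, was the most abundant of them, at 55.4 ± 5.56 against 42.3 ± 3.91 FPKM (limma, adjusted p = 0.05123). GGT5, a glutamyl transferase that acts outside the cell, did not overlap between the groups at 3.06 ± 0.781 against 1.92 ± 0.293 FPKM (limma, adjusted p = 0.1008). The study, which tested read counts with DESeq2, had listed GGT5 among its upregulated oxidative response genes. Of the 8 genes of NADPH supply none was called. NNT, the mitochondrial transhydrogenase, lay lower in every diabetic wound, at 8.18 ± 1.05 against 11.14 ± 1.01 FPKM (limma, adjusted p = 0.05431), and TALDO1 of the pentose phosphate pathway was the most abundant at 108.1 ± 10.6 and 118.1 ± 11.14 FPKM. None of the 13 tested genes of selenoprotein synthesis and other selenoproteins was called or reached an unadjusted p of 0.05, with log2 fold changes from -0.25 to 0.18. The 9 NRF2 partners and regulators also gave no call and no unadjusted p under 0.05, with log2 fold changes from -0.33 to 0.40.

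Of the 16 tested genes of iron uptake, export and regulation and the 8 of haem turnover, none was called. FBXL5, the iron-sensing subunit that marks IRP2 for destruction, did not overlap between the groups at 17.7 ± 1.52 against 15.4 ± 0.541 FPKM, with a log2 fold change of 0.19 (limma, adjusted p = 0.2248). SLC40A1, the iron exporter ferroportin, stood at 17.5 ± 3.84 against 33.7 ± 18.9 FPKM, the non-diabetic mean and SD both raised by non-diabetic replicate 1 at 60.9 FPKM. The transferrin receptor TFRC ranged from 0.319 to 8.53 FPKM in diabetic wounds and from 0.851 to 4.71 FPKM in non-diabetic wounds. PCBP1, an iron chaperone of ferritin, and the haemoglobin scavenger CD163 were the most abundant of their lists, at 123.4 ± 7.89 against 105.6 ± 11.6 FPKM and 79.0 ± 16.8 against 53.4 ± 16.0 FPKM.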

How the data were processed

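Poly-A RNA of 7 diabetic and 4 non-diabetic wounds, 1 library each, was sequenced. The authors deposited FPKM values per gene, made from reads trimmed by fastp, placed on Sscrofa11.1 by HISAT2 2.2.1, assembled by StringTie 2.2.3 and counted by featureCounts 2.0.6. The strand setting and the formula of the FPKM are not given in the sources used here. The libraries were made with a stranded (dUTP) kit. Times gene length, 100% of the values were whole reads to within 0.05 reads, which gave the depth of each library.

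Genes reaching 0.5 FPKM in 4 or more libraries were tested by limma on log2(FPKM + 0.5), using lmFit and eBayes with its trend, and p-values were adjusted by Benjamini-Hochberg. A call needed an adjusted p below 0.05 together with a log2 fold change beyond 0.5 in size. Fold changes are on that scale, which understates those of low genes. All 36 genes passed the filter. The genes, pathway lists and marker lists were chosen with earlier results of these data known, and no set of genes was tested. Named were all 36 genes, and of the other pathway genes those called, not overlapping or most abundant in their list. SLC40A1 and TFRC were chosen after their values were seen. PRXL2A was read under its older symbol FAM213A, and TF, carried by 2 genes, was left out.

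The 27 alternatives varied the pseudocount, the filter, the scaling, the error model, library weights, the block, the letter covariate and the wounds kept, with voom on recovered reads as another, and 1 was added after seeing the data. Sequences were read from the RefSeq Sscrofa11.1 assembly. The software was limma 3.58.1 in R 4.3.3, with pandas 2.3.3 in Python 3.11.15 for the summaries and matplotlib 3.10.9 for the figures.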

Additional observations from a re-analysis of the deposited data

Results flagged for a closer look

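NQO1 in diabetic replicate 2 stood apart from its group, at 34.5 FPKM with the next wound, diabetic replicate 7, at 18.3 FPKM. The gap was 0.608 of the group's range, above Dixon's 95% critical value for 7 samples. It was the only one of 72 groups of values examined, 2 for each of the 36 genes, and chance marks about 1 group in 20.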

How the results depend on the processing

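GPX1 and MSRB2 kept their direction in all 27 alternatives and their calls in 25, with log2 fold changes of 0.68 to 0.88 and 1.06 to 1.56. Both calls were lost among L-named wounds (0.85 and 1.06, limma, adjusted p = 0.1236 for each) and with the replicate block (0.88 and 1.29, limma, adjusted p = 0.1432 and 0.1776), so the count called was 0 there. The numbers of the labels do not pair these wounds, which come from different animals and whose same-numbered deviations correlated at -0.39, 0.43, 0.01 and -0.51. On the same 8 libraries without the block, an alternative chosen after seeing the data, the count was 2. PRDX5 was called only without diabetic replicate 4.

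Over all genes, calls higher and lower were 406 and 416 with library weights, 11 and 5 with the block, 57 and 67 on those 8 libraries without it, 5 and 4 among L-named wounds, 726 and 689 among R-named wounds, and 112 and 100 without diabetic replicate 4 and non-diabetic replicate 1. Leaving out 1 library at a time gave 110 to 236 higher and 99 to 246 lower. Among the other pathway genes, where 1 was called in each direction, the counts were 5 and 0 with library weights and 6 and 7 among R-named wounds. They were 0 and 0 with no filter, quantile normalization, median centring, the letter as a covariate, the block, the 8 libraries without it, L-named wounds, or the pair of wounds low in keratinocyte markers left out. The count lower was also 0 with a pseudocount of 0.1 or 1. Leaving out 1 library gave 0 to 1 for either.

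No gene whose log2 fold change turned sign had been called, and the cause was not tested. Among R-named wounds the turned values were GPX2 -1.25, GPX3 -1.11, GPX7 0.37, PRDX1 -0.023, PRDX3 -0.024, PRDX6 -0.16, TXN -0.11, SOD3 0.59, SLC7A11 -0.65, NFE2L2 -0.17, HMOX1 0.52 and FTL 0.17. Among L-named wounds they were PRDX4 -0.23, TXN2 -0.087, TXNRD2 -0.15, SOD2 0.92, GCLC 0.096, GCLM 0.35, GSR -0.013, KEAP1 -0.0074, MSRA -0.21 and SESN2 -0.0098. Quantile normalization gave GPX3 -0.040, PRDX2 -0.017, PRDX3 -0.0084 and KEAP1 -0.040, and library weights gave GPX7 0.025, SOD3 0.080, SLC7A11 -0.067 and HMOX1 0.15. The 8 libraries gave, with the block or without it, GPX3 -0.11, PRDX4 -0.072, TXNRD2 -0.036, SOD2 0.23, KEAP1 -0.0035 and SESN2 -0.0021. Without the pair of wounds low in keratinocyte markers, GPX3 was -0.44 and HMOX1 0.18, and with the letter as a covariate SOD2 was 0.0022. Leaving out 1 library at a time spanned -0.096 to 1.32 for GPX2, -0.82 to 0.48 for GPX3, -0.28 to 0.0051 for GPX7, -0.049 to 0.083 for TXNRD2, -0.27 to 0.18 for SOD2, -0.23 to 0.17 for SOD3, -0.10 to 0.39 for SLC7A11, -0.0055 to 0.043 for KEAP1 and -0.22 to 0.21 for HMOX1. Depth limited GPX2 in diabetic replicate 4, which rests on 8 reads, the lowest number behind any value of the 36 genes.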

Other observations

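Entries that belong to the same enzyme families by description but are not among the 36 genes numbered 56, of which 44 were pseudogenes or long non-coding RNAs with at most 0.675 FPKM in any wound. Of the protein-coding ones, 6 had a mean of at least 5 FPKM over the 11 wounds, and none was called. MSRB1, the selenoprotein of the methionine sulfoxide reductases, had a diabetic mean of 30.9 and a non-diabetic mean of 28.1 FPKM, well above MSRB2 and MSRB3. The copper chaperone of SOD1, CCS, stood at 16.9 and 14.03 FPKM. The peroxiredoxin-like gene FAM213A stood at 15.4 and 8.68 FPKM (limma, adjusted p = 0.08638), and AAED1, another of that kind, at 8.48 and 8.198 FPKM. SELENOT, a thioredoxin-like selenoprotein of the endoplasmic reticulum, stood at 29.5 and 25.8 FPKM. TXNRD3, the thioredoxin reductase best known from testis, was lower at 4.78 and 6.68 FPKM (log2 fold change -0.48, limma, adjusted p = 0.1558).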
